A study of Mus musculus with 12 samples.

Results

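The transcripts described here encode 10 enzymes that make serine, interconvert serine and glycine, carry one-carbon units on folate, or release them from dimethylglycine and sarcosine: Phgdh, Psat1, Psph, Shmt1, Shmt2, Mthfd1, Mthfd1l, Mthfd2, Sardh and Dmgdh. They were chosen by enzyme function and with the cold against ctrl result of these data known, so their differences in that comparison are given as a description with no p-value, and where the fit across all genes called a member this is stated as a description too, not as evidence. They are 10 of 54356 genes with transcripts in the files, and 9 of them were among the 13876 genes that passed the filter on low counts. Polyadenylated RNA of interscapular brown adipose tissue, the heat-producing fat pad between the shoulder blades, was sequenced from 12 mice, 6 labelled ctrl and 6 labelled cold. All were wild type C57BL/6N males of 20 weeks, 1 library per animal, and animals are named here by group and mouse number (ctrl 2, 5, 6, 9, 10 and 14, and cold 4, 7, 11, 12, 15 and 16). The labels attach the same treatment text, single housing at 4 °C for 24 h, to both groups, with a colony held at 22 to 24 °C, so how and where the ctrl animals were housed is not given apart from the word ctrl. The series text gives n = 3 for the cold animals, where 6 carry the label, and the extraction text names another fat depot. The brown fat label was checked against its markers: Ucp1, the uncoupling protein that defines brown adipocytes, ran from 6549 to 11265 CPM (read counts scaled to a common library size) over the 12 libraries.

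Serine is made from the glycolytic intermediate 3-phosphoglycerate in a chain of reactions by Phgdh, Psat1 and Psph. Serine hydroxymethyltransferase, Shmt1 in the cytosol and Shmt2 in mitochondria, splits serine into glycine and a one-carbon unit that is loaded onto tetrahydrofolate. In mitochondria Mthfd2 oxidises that unit and Mthfd1l releases it as formate. Mthfd1 in the cytosol loads formate onto tetrahydrofolate, for purines, thymidylate and methionine. Dmgdh and Sardh, both mitochondrial flavoproteins, strip methyl groups from dimethylglycine and sarcosine. They pass electrons to the respiratory chain through electron transfer flavoprotein.

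Libraries held 15984872 to 31423954 estimated reads. Gene values below are CPM after scaling libraries by trimmed mean of M-values (TMM), with mean ± SD over animals, and differences are log2 fold changes of cold over ctrl with the standard error (SE) of the fit. In ctrl 2 the transcript Gm42418, which overlaps ribosomal RNA sequence, took 9.94% of reads against at most 1.40% elsewhere. Skeletal muscle marker transcripts summed to 192 to 1835 CPM in ctrl and 226 to 5662 CPM in cold animals, highest in cold 15. The summed brown adipocyte markers were 19940 to 27622 CPM in ctrl and 25512 to 34096 CPM in cold animals, and those of fibroblasts and progenitors 255 to 391 and 204 to 293 CPM. Ucp1 and Fabp4, with ctrl means of 8629 and 9742 CPM, weighed most in the brown adipocyte sum. Adipoq was lower in cold (510 to 330 CPM). All other brown adipocyte markers had higher means, from Prdm16 (47.4 to 49.0 CPM) to Ppargc1a (53.7 to 316 CPM). The fibroblast and progenitor markers differed in direction. Means were lower in cold for Col3a1 (152 to 82.6 CPM), Col1a1 (58.1 to 40.8 CPM) and Lum. They were higher for Pdgfra, Dcn, Dpp4, Pi16 and Ly6a (29.3 to 36.4 CPM), so the sum does not stand for all of its markers. None of the 9 marker sums passed adjustment in a comparison of the groups (exact two-sided permutation test, smallest adjusted p = 0.0779, for brown adipocytes). Their part in the differences below was not tested, beyond the fits without ctrl 2 and cold 15 and with the muscle marker level as a covariate that are given beside the members. That covariate was the mean log2 CPM of the 12 muscle markers in each library, not their summed CPM. In whole tissue, fewer cells of a type and less RNA per cell cannot be told apart.

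Of the 9 measured members, Mthfd1 and Mthfd2 were called higher in cold animals, Sardh and Psph lower, and 5 were not called. Across all genes tested 31.6% were called, 16.2% higher and 15.4% lower, at an adjusted p under 0.05 (edgeR quasi-likelihood test, Benjamini-Hochberg). The higher genes made up 51.3% of all called genes, or 67.3% when libraries were scaled by their totals. For 2 members, Sardh and Mthfd1, no cold animal lay within the ctrl range or the reverse, and the same held for 16.3% of all genes tested. Nothing is read from these counts, because this contrast was known when the members were chosen. The median log2 fold change of the 9 members was -0.01.

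**Figure D1:**
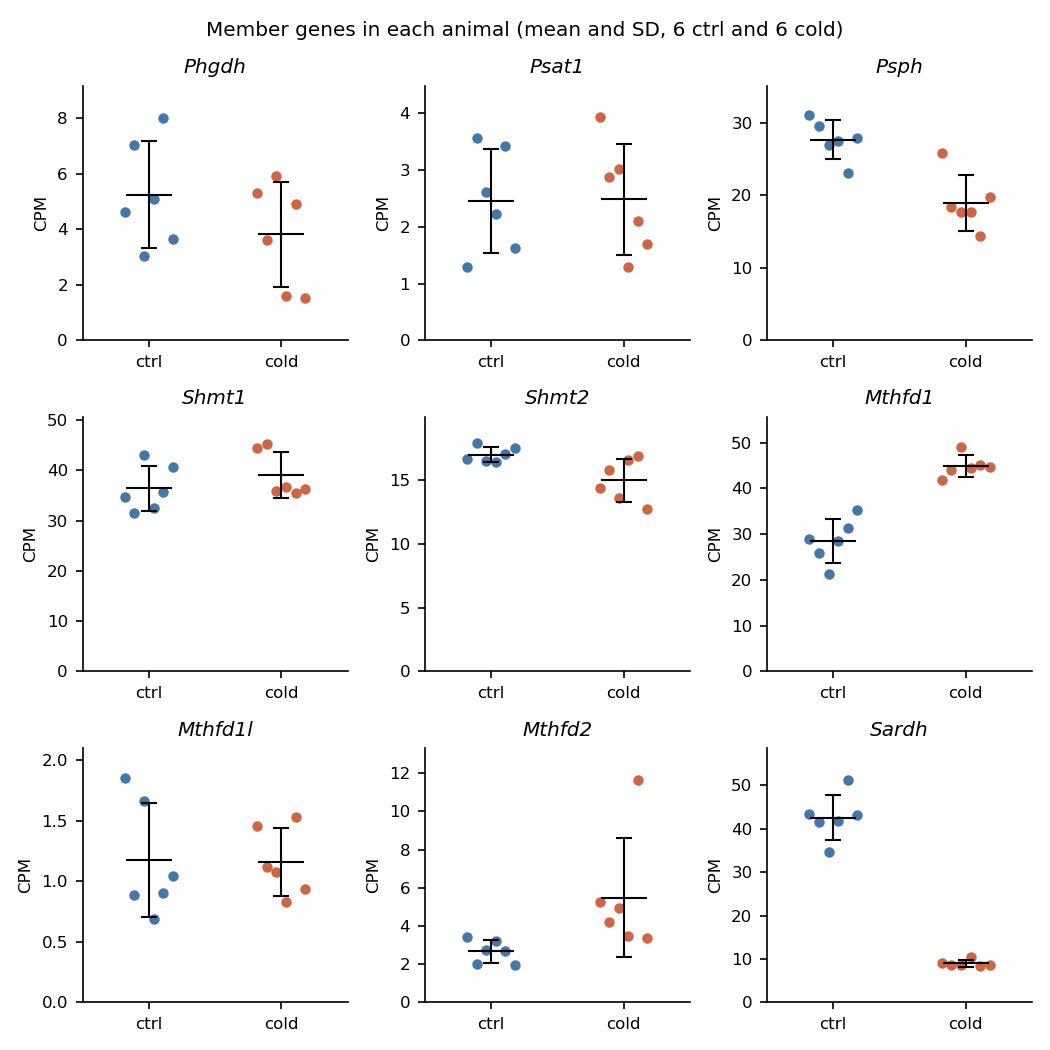
Levels of the 9 measured members in CPM (linear axes from 0, a separate scale for each gene) in 6 ctrl and 6 cold animals, with points for animals and bars for mean and SD. Sardh and Mthfd1 show separate groups, the group ranges of Psph and Mthfd2 meet at their edges, and the other 5 overlap.

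Sardh (ENSMUSG00000009614.16, GRCm38 chr2:27188393-27248337, minus strand), the enzyme that converts sarcosine to glycine, showed the largest difference among the members. It stood at 43.3, 41.5, 34.6, 41.8, 51.1 and 43.04 CPM in the ctrl animals and at 9.14, 8.68, 8.73, 10.5, 8.31 and 8.69 CPM in the cold animals. The lowest ctrl animal was thus above every cold animal, and the cold animals lay close together. The mean was 42.6 ± 5.27 CPM (SD, n = 6) in ctrl and 9.00 ± 0.770 CPM (SD, n = 6) in cold, 4.72-fold lower in cold (log2 fold change -2.24 ± 0.10 SE). Without ctrl 2 and cold 15 the log2 fold change was -2.21, and with the muscle marker level as a covariate -2.26. The coding transcript Sardh-202 carried 94.2% ± 3.76 of the gene's estimated reads in ctrl (SD, n = 6) and 86.5% ± 12.5 in cold (SD, n = 6). An antisense gene, Sardhos, overlaps 45329 bases of Sardh on the opposite strand and did not exceed 0.0396 CPM in any animal.

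Dmgdh (ENSMUSG00000042102.7, chr13:93674433-93752833, plus strand), which makes sarcosine from dimethylglycine, had 0 reads in all 12 libraries. A count of 0 allows a level of up to 3 reads, which is 0.0969 to 0.196 CPM depending on the library. No comparison was made for it.

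The genes that supply sarcosine and use its products moved in both directions. Gnmt, which methylates glycine to sarcosine with S-adenosylmethionine as donor, rose from 1.61 ± 0.695 to 9.08 ± 2.49 CPM (log2 fold change 2.47 ± 0.26 SE, edgeR adjusted p = 5.45e-06). Its 6 cold animals ran from 6.53 to 13.2 CPM and its 6 ctrl animals from 0.742 to 2.47 CPM, so the groups were apart in the direction opposite to Sardh. Chdh, choline dehydrogenase, at the head of the route through betaine and dimethylglycine, fell from 105 ± 15.2 to 45.0 ± 9.23 CPM (log2 fold change -1.23 ± 0.13 SE, edgeR adjusted p = 5.53e-06), again with no overlap. Etfdh, which passes the electrons of Sardh and Dmgdh to ubiquinone, rose from 786 ± 75.7 to 959 ± 38.8 CPM (log2 fold change 0.29 ± 0.08 SE, edgeR adjusted p = 9.85e-03). Gcsh, the carrier protein of the glycine cleavage system, fell from 97.5 ± 7.10 to 47.6 ± 5.55 CPM (log2 fold change -1.03 ± 0.08 SE, edgeR adjusted p = 1.90e-07). Pipox, the peroxisomal sarcosine oxidase, did not exceed 0.171 CPM in any animal, Bhmt, which uses betaine, 0.485 CPM, and Gldc, the glycine decarboxylase that works with Gcsh, 0.804 CPM. These 3 were too low to test. Of the 13 genes of choline, betaine and sarcosine steps 10 were tested, of which 2 rose (Gnmt and Etfdh) and 3 fell (Chdh, Pemt and Aldh9a1), with a median log2 fold change of -0.02.

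**Figure D2:**
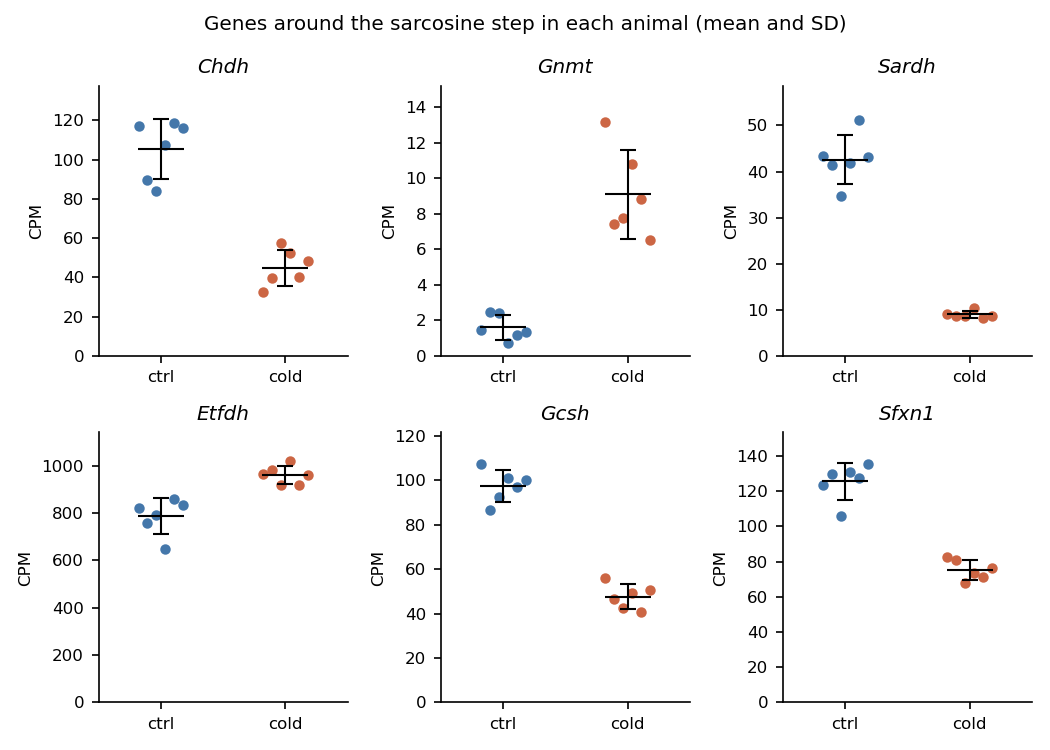
Levels in CPM (linear axes from 0) of genes around the sarcosine step in 6 ctrl and 6 cold animals, with points for animals and bars for mean and SD. Chdh, Sardh, Gcsh and the mitochondrial serine carrier Sfxn1 lie lower in all 6 cold animals, and Gnmt and Etfdh higher.

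Of the enzymes of serine synthesis only Psph was called, lower in cold animals, and Phgdh and Psat1 were not called. Psph (ENSMUSG00000029446.14, chr5:129765558-129787449, minus strand), the phosphatase of the last step, stood at 31.1, 29.5, 27.0, 27.5, 23.1 and 28.0 CPM in ctrl and at 25.8, 18.4, 17.7, 17.7, 14.3 and 19.8 CPM in cold animals. Cold 4 alone reached into the ctrl range, above ctrl 10, and the other 5 cold animals were below every ctrl animal. The means were 27.7 ± 2.71 and 18.9 ± 3.82 CPM (SD, n = 6 each), so that the log2 fold change was -0.54 ± 0.12 SE. It was -0.65 without cold 4, -0.44 without ctrl 2 and cold 15 and -0.49 with the muscle covariate. Psph shares 452 bases with Cct6a, a chaperonin subunit gene on the opposite strand with a mean of 80.6 CPM in the ctrl and 86.1 CPM in the cold animals. The libraries were strand-specific per the labels, but the sources used here do not say whether strand was used in counting.

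Phgdh (ENSMUSG00000053398.11, chr3:98313170-98339990, minus strand), the dehydrogenase that opens the pathway, ran from 3.05 to 7.99 CPM in ctrl, with a median of 4.85, and from 1.52 to 5.92 CPM in cold, with a median of 4.26. Cold 12 and cold 16, at 1.60 and 1.52 CPM, lay below all other animals, while the other 4 cold animals lay within the ctrl range. The log2 fold change was -0.45 ± 0.35 SE and was not called. Psat1 (ENSMUSG00000024640.9, chr19:15904678-15947337, minus strand), the aminotransferase of the middle step, ran from 1.29 to 3.56 CPM in ctrl and from 1.29 to 3.94 CPM in cold, overlapping almost fully (log2 fold change 0.01 ± 0.29 SE, not called). The coefficient of variation between animals was 36.7% and 49.9% for Phgdh in ctrl and cold, 37.5% and 39.3% for Psat1 and 9.78% and 20.1% for Psph. The first 2 enzymes rested on 26 to 174 and 21 to 122 reads per library, and Psph on 328 to 799.

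Neither serine hydroxymethyltransferase was called. Shmt1 (ENSMUSG00000020534.14, chr11:60788104-60811718, minus strand) ran from 31.6 to 42.99 CPM in ctrl, median 35.2, and from 35.5 to 45.3 CPM in cold, median 36.5. Its log2 fold change was 0.10 ± 0.10 SE, and 4 of the 6 cold animals lay within 35.5 to 36.8 CPM, inside the ctrl range, while cold 4 and cold 7 lay above it. Shmt2 (ENSMUSG00000025403.5, chr10:127517123-127522444, minus strand) ran from 16.4 to 17.9 CPM in ctrl, a coefficient of variation of 3.45%, and from 12.7 to 16.9 CPM in cold, 11.2%. Cold 12 and cold 15 were inside the ctrl range and the other 4 cold animals below it. The log2 fold change of -0.18 ± 0.08 SE became -0.09 when libraries were scaled by their totals. Sfxn1, which carries serine into mitochondria to Shmt2, fell from 126 ± 10.4 to 75.3 ± 5.80 CPM (log2 fold change -0.74 ± 0.08 SE, edgeR adjusted p = 2.37e-06), and Sfxn2, of the same family, rose from 7.89 ± 1.08 to 12.0 ± 0.794 CPM (log2 fold change 0.60 ± 0.10 SE, edgeR adjusted p = 2.75e-04).

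Mthfd1 (ENSMUSG00000021048.7, chr12:76255298-76319803, plus strand), the cytosolic enzyme with dehydrogenase, cyclohydrolase and formate-activating functions, stood at 28.9, 25.8, 21.2, 28.4, 31.2 and 35.2 CPM in ctrl and at 41.9, 44.1, 49.1, 44.4, 45.0 and 44.7 CPM in cold animals. Every cold animal was above every ctrl animal, with a coefficient of variation of 16.7% in ctrl and 5.27% in cold. The means of 28.5 ± 4.75 and 44.9 ± 2.36 CPM (SD, n = 6 each) differed 1.58-fold, on the log2 scale by 0.66 ± 0.10 SE. It was 0.66 without ctrl 2 and cold 15 and 0.62 with the muscle covariate. Estimated reads moved between a pair of coding transcripts that differ little in length: Mthfd1-201 carried 41.3% to 100% and Mthfd1-206 carried 0% to 57.1% depending on the animal, in both groups.

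Mthfd2 (ENSMUSG00000005667.8, chr6:83305691-83325908, minus strand), the mitochondrial dehydrogenase and cyclohydrolase, stood at 3.45, 2.02, 2.77, 3.19, 2.72 and 1.96 CPM in ctrl and at 5.23, 4.21, 4.96, 3.46, 11.6 and 3.38 CPM in cold animals. Cold 15 stood far above the rest, and the groups met where cold 16, the lowest cold animal, fell just below ctrl 2. The means of 2.69 ± 0.604 and 5.48 ± 3.11 CPM (SD, n = 6 each) differed by 1.04 ± 0.29 SE on the log2 scale. Cold 15 decided its size: without that animal the log2 fold change was 0.67 ± 0.19 SE. Cold 15 also held the highest summed muscle markers, 5662 CPM. With the muscle covariate, the mean log2 CPM of those markers, the log2 fold change of Mthfd2 was 0.86. The main coding transcript, Mthfd2-201, carried 80.7% to 94.1% of the gene's reads in ctrl and at least 96.1% in cold. These shares rested on only 30 to 70 reads of the gene per ctrl library and 58 to 266 per cold library, and were not tested.

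Mthfd1l (ENSMUSG00000040675.17, chr10:3973118-4167081, plus strand), the mitochondrial enzyme that releases formate, was the lowest of the measured members. It ran from 0.685 to 1.85 CPM in ctrl and from 0.826 to 1.53 CPM in cold on 12 to 45 reads per library, and its log2 fold change was -0.01 ± 0.28 SE. Of its relatives, Mthfd2l, a mitochondrial dehydrogenase like Mthfd2, fell from 5.31 ± 0.814 to 3.34 ± 0.564 CPM (log2 fold change -0.66 ± 0.14 SE, edgeR adjusted p = 2.20e-03), in the direction opposite to Mthfd2 and without overlap.

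Per kilobase of transcript, where levels can be set between genes, Psph led in ctrl at 19.2 CPM per kilobase, followed by Shmt1 at 15.9, Sardh at 12.1, Mthfd1 at 9.10 and Shmt2 at 8.33. Each of these overlapped its neighbour in the order over the 6 animals, and a gap without overlap separated Shmt2 from Phgdh at 3.04. Below it came Mthfd2 at 1.76, Psat1 at 1.08 and Mthfd1l at 0.351, again overlapping from one to the next. In cold animals the order on the same scale was Shmt1 at 16.2, Mthfd1 at 14.9, Psph at 12.6, Shmt2 at 7.23, Mthfd2 at 2.82, Sardh at 2.62, Phgdh at 2.32, Psat1 at 1.05 and Mthfd1l at 0.318. Gaps without overlap lay between Psph and Shmt2 and between Psat1 and Mthfd1l. Sardh thus went from the third place to the sixth and Mthfd1 from the fourth to the second. Gnmt was at 1.59 in ctrl and 8.91 in cold on this scale, so the level of Gnmt was below that of Sardh in every ctrl animal and above it in every cold animal.

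Bases upstream of the RefSeq transcription start (GRCm38.p6) are shown for 4 members whose printed bases lie outside annotated exons of coding genes, because a CCAAT box, bound by nuclear factor Y, was the short element that recurred among them. Each is printed 5′ to 3′ on the strand of the gene, with CCAAT, or ATTGG for the other strand, in capitals. For Mthfd1, Shmt1 and Psat1 they are the 100 bases before the start, and for Mthfd2 98 bases that end 3 bases before it.
Mthfd1, chr12:76255132-76255231, plus strand: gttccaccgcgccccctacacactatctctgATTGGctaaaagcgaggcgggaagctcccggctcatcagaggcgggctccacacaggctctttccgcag
Mthfd2, chr6:83317607-83317704, minus strand: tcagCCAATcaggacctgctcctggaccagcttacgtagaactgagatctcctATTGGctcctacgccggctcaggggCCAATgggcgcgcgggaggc
Shmt1, chr11:60811266-60811365, minus strand: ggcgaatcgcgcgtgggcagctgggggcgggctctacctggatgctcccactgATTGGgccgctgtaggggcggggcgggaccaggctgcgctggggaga
Psat1, chr19:15925060-15925159, minus strand: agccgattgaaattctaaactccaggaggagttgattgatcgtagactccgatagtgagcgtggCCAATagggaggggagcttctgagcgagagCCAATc
The RefSeq table held 11 start sites for the 10 members. Over the 100 bases before each, CCAAT occurred on either strand at 6 of the 11, those of Phgdh, Psph, Shmt1, Mthfd1, Mthfd2 and 1 of the pair for Psat1, and at 18.9% of all 32851 start sites. The element was chosen after the sequences had been read. In windows from 250 bases before to 50 after the start, no member held TGATGNAA (a composite site of ATF4 and C/EBP factors), TGACGTCA (the cAMP response element), CACGTG (an E-box) or TNAAGGTCA (an estrogen-related receptor element) on either strand. All windows of that length held them at 3.97%, 1.79%, 7.15% and 1.28%. Near the start site Sardh held 3 CpG dinucleotides and the other members 7 to 24, against a median of 6 over all start sites.

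Within groups, which the choice of members did not use, 14 relations were computed over 7 pairs fixed by function, and none passed adjustment (smallest adjusted p = 0.194, exact two-sided permutation test). In the cold animals Phgdh and Psat1, consecutive enzymes, had a Pearson r of 0.838 (exact permutation p = 0.0417, adjusted p = 0.194) and a Spearman rho of 0.829 (exact permutation p = 0.0583, adjusted p = 0.272). It rested on cold 12 and cold 16, low in both genes, since r was 0.209 without these 2. Mthfd2 and Mthfd1l in cold animals had an r of 0.838 (exact permutation p = 0.0167, adjusted p = 0.194), a rho of 0.886 (exact permutation p = 0.0333, adjusted p = 0.233), and an r of 0.883 without the 2 animals farthest from the median of Mthfd2. In ctrl animals the values of r for these pairs were 0.569 and 0.304. Relations of like size were also negative. Shmt1 and Mthfd1 in cold animals had a rho of -0.886 (exact permutation p = 0.0333, adjusted p = 0.233) and an r of -0.630 (exact permutation p = 0.186, adjusted p = 0.574). Shmt2 and Mthfd2 in ctrl animals had an r of -0.895 (exact permutation p = 0.0278, adjusted p = 0.194).

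**Figure D3:**
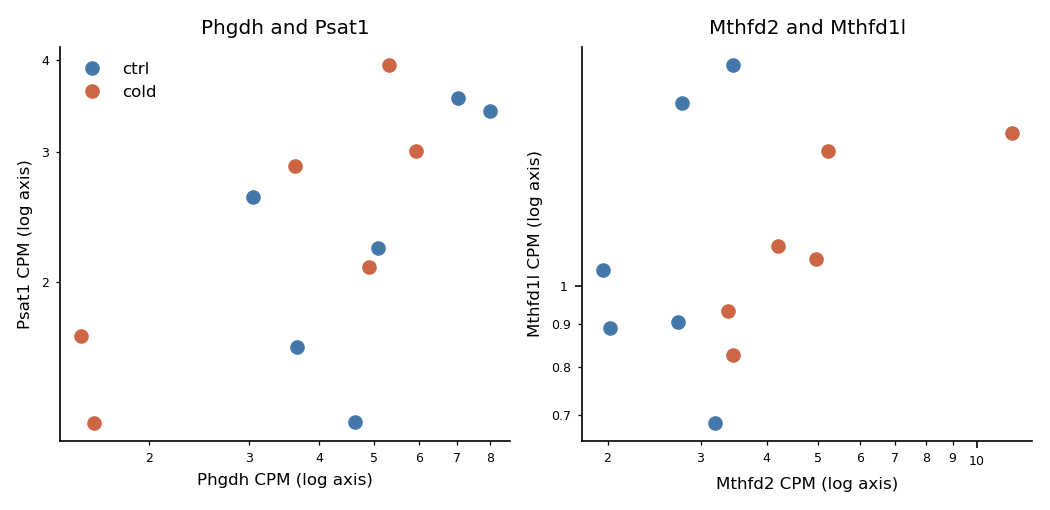
Levels of Psat1 against Phgdh (left) and Mthfd1l against Mthfd2 (right) in CPM on log axes, with a point for each of 6 ctrl and 6 cold animals. The cold points with the lowest Phgdh, cold 12 and cold 16, are also low in Psat1, and cold 15 stands far right in Mthfd2.

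Genes that work beside the members were counted from 7 lists of 107 genes drawn up by function, of which 90 were tested. Among them 24 rose, 15 fell and 51 did not pass, 43.3% called, with a median log2 fold change of 0.05. Over all genes tested 31.6% were called, 16.2% higher and 15.4% lower, and the counts of each list below stand beside those shares. The lists were drawn up with earlier results of these data known, so nothing is read from their counts. Of 18 folate cycle and folate transport genes 15 were tested, of which 2 rose, Aldh1l1 and Tyms, and 3 fell, Mthfd2l and Slc46a1 among them (median log2 fold change -0.00). Aldh1l1, the cytosolic enzyme that oxidises the formyl-folate made by Mthfd1, rose from 70.7 ± 12.1 to 111 ± 14.2 CPM (log2 fold change 0.65 ± 0.12 SE, edgeR adjusted p = 4.45e-04), with no overlap. Tyms, thymidylate synthase, rose from 4.73 ± 0.798 to 9.88 ± 1.28 CPM (log2 fold change 1.06 ± 0.13 SE, edgeR adjusted p = 1.43e-05). The 10 proliferation markers summed to 4.90 to 8.20 CPM in ctrl and 5.95 to 10.6 CPM in cold animals (exact permutation, adjusted p = 0.169, and 0.0390 with library totals). Means were higher in cold for Rrm2 (0.576 to 1.15 CPM), Top2a, Ccna2, Cdk1, Bub1, Mki67 and Mcm5, and lower for Ccnb1, Aurkb and Birc5. Of these, Cdk1, Bub1, Ccnb1, Aurkb and Birc5 did not exceed 0.678 CPM in any library, so their directions rest on few reads. Mcm5 hardly moved (2.34 to 2.39 CPM). The relation of the proliferation markers to Tyms was not tested. Slc46a1, a folate importer, fell from 8.35 ± 0.946 to 4.96 ± 0.553 CPM (log2 fold change -0.75 ± 0.11 SE, edgeR adjusted p = 1.01e-04). Aldh1l2, the mitochondrial counterpart of Aldh1l1, stayed at or below 0.607 CPM and was not tested. Mtr, methionine synthase (log2 fold change -0.00 ± 0.16 SE), and Slc25a32, the mitochondrial folate carrier (0.07 ± 0.14 SE), did not pass.

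Of 19 genes of glycine cleavage and serine or glycine use 13 were tested, 4 rose and 3 fell (median log2 fold change -0.11). Cth, which makes cysteine from cystathionine, rose from 1.30 ± 0.211 to 4.28 ± 1.60 CPM (log2 fold change 1.70 ± 0.24 SE, edgeR adjusted p = 4.44e-05), and Sptlc1, which condenses serine with palmitoyl-CoA, from 29.3 ± 2.79 to 42.8 ± 1.94 CPM (log2 fold change 0.55 ± 0.07 SE, edgeR adjusted p = 3.71e-05). All 13 purine synthesis genes were tested, 5 rose and 1 fell (median log2 fold change 0.07). Gmps, GMP synthetase, rose from 69.3 ± 4.84 to 124 ± 6.45 CPM (log2 fold change 0.84 ± 0.07 SE, edgeR adjusted p = 1.70e-07), and Impdh1, one of the enzymes of the step before it, fell from 110 ± 10.1 to 67.9 ± 5.37 CPM (log2 fold change -0.69 ± 0.08 SE, edgeR adjusted p = 6.47e-06). Adssl1, adenylosuccinate synthetase of muscle, rose by a log2 fold change of 0.85 ± 0.12 SE (edgeR adjusted p = 3.86e-05). Of the 5 that rose, Gmps, Adssl1, Adsl, Adss and Impdh2, none belongs to the folate-dependent steps of the ring. Gart and Atic, which use formyl-folate, did not pass.

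Of 11 methionine cycle genes 10 were tested, 3 rose and 2 fell (median log2 fold change 0.02): Adi1 of the methionine salvage route fell by 0.59 on the log2 scale (edgeR adjusted p = 3.58e-04), Ahcyl2 fell by 0.46 (edgeR adjusted p = 5.79e-03) and Mtap rose by 0.40 (edgeR adjusted p = 3.44e-03). Of 13 serine and glycine carriers 12 were tested, 3 rose and 2 fell (median log2 fold change -0.28), among them Slc36a1, a lysosomal and plasma membrane carrier of small amino acids, which rose by 0.68 ± 0.13 SE on the log2 scale (edgeR adjusted p = 1.02e-03).

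Phgdh, Psat1, Shmt2 and Mthfd2 are textbook targets of ATF4, the transcription factor of the amino acid response, and of these only Mthfd2 was called, higher in cold animals. Psph, which follows Phgdh and Psat1 in serine synthesis, was called lower (log2 fold change -0.54 ± 0.12 SE). Of 20 genes of ATF4 and its other targets 17 were tested, 5 rose and 1 fell (median log2 fold change 0.17). Atf4 itself ran from 90.9 to 127 CPM in ctrl and from 117 to 176 CPM in cold animals (log2 fold change 0.27 ± 0.10 SE, edgeR adjusted p = 0.0466), a call that was lost on leaving out any 1 of 10 of the 12 animals (edgeR adjusted p = 0.0319 to 0.101 over the 12). Atf3, a stress-induced factor, rose from 2.53 ± 0.533 to 12.0 ± 2.84 CPM (log2 fold change 2.25 ± 0.18 SE, edgeR adjusted p = 1.37e-07). Slc3a2, the heavy chain of amino acid exchangers, rose from 56.1 ± 11.3 to 135 ± 12.0 CPM (log2 fold change 1.26 ± 0.11 SE, edgeR adjusted p = 5.40e-07). Asns, asparagine synthetase, fell from 50.5 ± 6.54 to 40.2 ± 4.32 CPM (log2 fold change -0.33 ± 0.10 SE, edgeR adjusted p = 0.0154), a call that was lost when libraries were scaled by their totals (-0.24, adjusted p = 0.0727) and without ctrl 2 and cold 15 (adjusted p = 0.0548). Among the cold animals, 12 of the 17 were highest in cold 4 and 3, Atf5, Chac1 and Trib3, in cold 15. Fewer of these genes were called higher without cold 15, ctrl 14 or ctrl 2 and cold 15 together (2 in each case) and without ctrl 2, ctrl 5 or ctrl 10 (3 in each case).

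**Figure D4:**
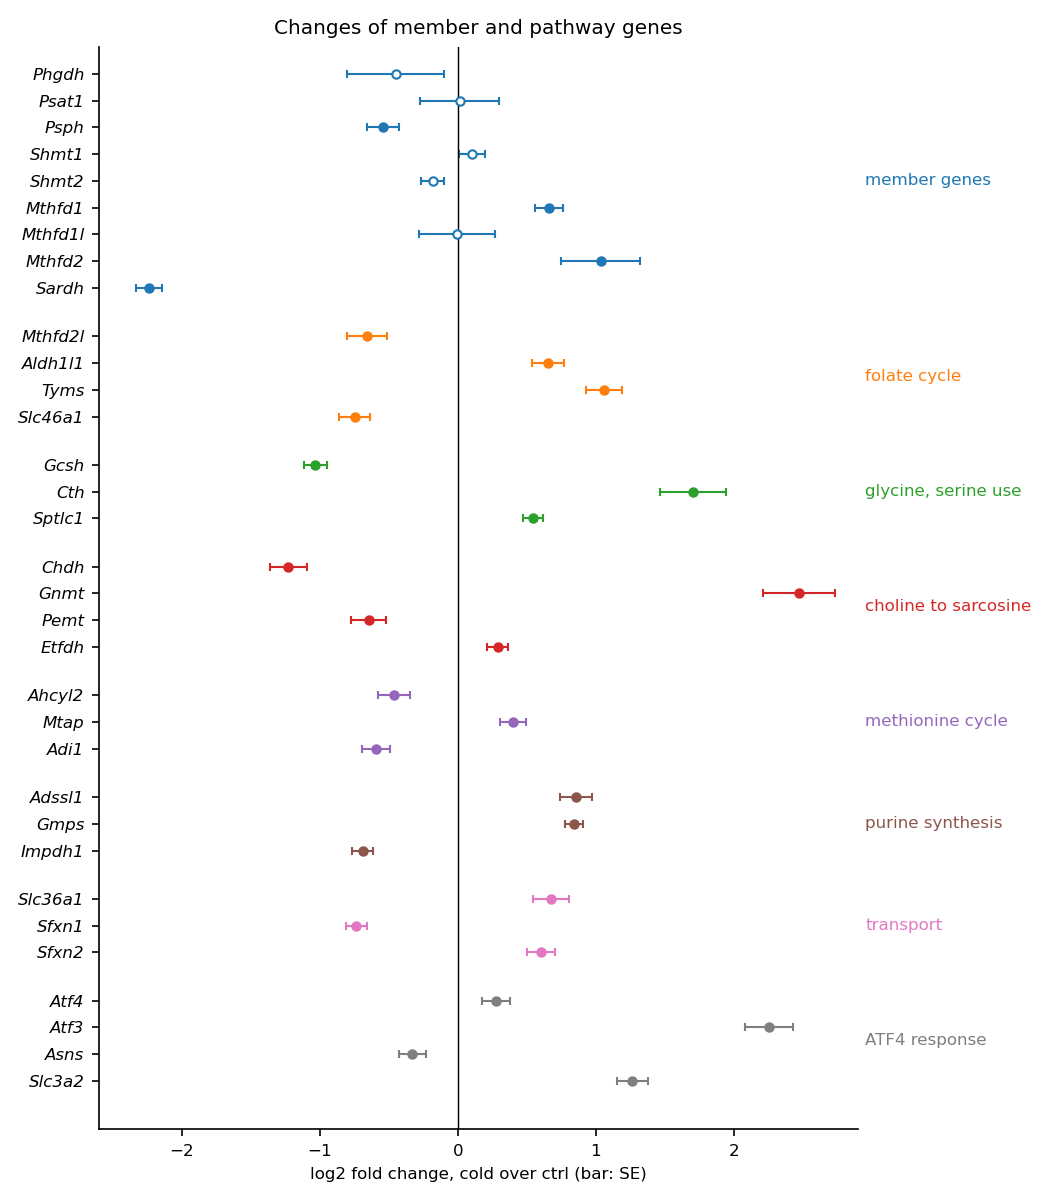
Log2 fold changes of cold over ctrl with SE for the 9 measured members and for the named genes of each functional list that passed the test, 6 animals per group. Filled points are genes with an adjusted p under 0.05 and open points the members without, and called genes of the lists lie on both sides of 0.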

How the data were processed

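The deposited files hold, per the file headers, 140658 transcripts per animal with estimated counts (not normalized) and TPM (abundance per effective length). Per the labels' protocols, reads were paired, 50 nt long and strand-specific. The tools named by the submitters' processing notes are bcl2fastq, cutadapt and Salmon, with GRCm38 as the build. Deposited TPM were not compared between animals, because in ctrl 2 as much as 55.2% of TPM lay in transcripts shorter than 50 nt in effective length, and in the other animals 2.36% to 8.41%. Deposited annotated and effective lengths served for values per kilobase only.

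Transcripts were tied to genes through GENCODE M21 by identifier without version (140137 matched, and the 521 others, at most 0.152% of reads, were left out). Estimated counts were summed per gene and rounded. Genes were kept with edgeR 4.0.16 filterByExpr (minimum count 10) and scaled by TMM, and cold was compared with ctrl in the robust quasi-likelihood test, two-sided, with Benjamini-Hochberg adjustment over 13876 genes, in R 4.3.3. The biological coefficient of variation was 20.6%. Each animal carries its own mouse number and no batch is labelled, so p-values measure the spread between animals. Marker sums and member pairs (log2 CPM) were tested by exact permutation with SciPy 1.17.1. Alternatives were other scalings, DESeq2 1.42.0, limma-voom (limma 3.58.1), other filters, a muscle covariate, mitochondrial genes left out and each animal left out. Leaving out ctrl 2 and cold 15 together was added after the data were seen. Fits were tested on simulated data. Named are all 10 members, up to 3 genes per list with the smallest p and 16 genes fixed by function, and other called genes of small counts were named after their values were seen. The members, lists and tests were chosen with earlier results of these data known. Motif matches were searched in RefSeq start site windows, and all 10 members matched by symbol. Protein sequences were not analysed here. Some genes of the lists are counted but not reported here by name.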

Additional observations from a re-analysis of the deposited data

Results flagged for a closer look

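Of 98 sets of 6 animals examined, 4 held an animal whose gap to its nearest neighbour exceeded 0.625 of the range of its group, Dixon's critical value for 6 samples. Chance passes that value in about 1 in 20 sets. Mthfd2 stood at 11.63 CPM in cold 15 and at 3.383 to 5.235 CPM in the other cold animals. Atf4 stood at 175.6 CPM in cold 4 against 116.7 to 138.5 CPM in the other cold animals. Slc36a1 was lowest in the same animal, cold 4, at 17.16 CPM against 27.1 to 32.88 CPM. The summed lymphocyte markers reached 5.016 CPM in cold 16 and 2.055 to 2.875 CPM in the other cold animals. The value of cold 16 lay within the ctrl range of 2.305 to 6.738 CPM. Of the 8 lymphocyte markers 5 stayed at or under 1 CPM in every library.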

How the results depend on the processing

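As a description of members chosen on this contrast, the log2 fold change ran over the alternatives from -2.29 to -2.15 for Sardh, 0.59 to 0.75 for Mthfd1, 0.67 to 1.15 for Mthfd2 and -0.65 to -0.44 for Psph. Psat1 and Mthfd1l were not tested at a minimum count of 50. No paired analysis was possible because the mouse numbers differ between the groups. Genes called lower fell from 2134 to 1409 with library totals. Of the ATF4 list, the genes called higher (5) were 2 without ctrl 2 and cold 15 and 2 to 6 with each animal left out. Those called lower (1) were 0 with library totals, 2 with DESeq2, 0 without ctrl 2 and cold 15 and 1 to 2 with each animal left out. Values per kilobase with effective length were 23.37 for Psph, 18.49 for Shmt1 and 2.524 for Mthfd2 in ctrl, and 18.94 for Shmt1 in cold. With library totals the summed brown adipocyte markers were higher in cold by 6863 CPM (exact permutation, adjusted p = 0.0195) and the proliferation markers by 2.256 CPM (exact permutation, adjusted p = 0.0390). With each animal left out the cold minus ctrl difference ran from 4171 to 6158 CPM for brown adipocyte markers, passing adjustment only without ctrl 6, and from -95.33 to -68.13 CPM for fibroblast markers, likewise only without ctrl 6. The fibroblast and progenitor markers differed in direction between genes, and among the brown adipocyte markers Adipoq was lower in cold. The cause of these shifts was not tested. The depth limits Mthfd1l, Psat1, Phgdh and Mthfd2, with as few as 12, 21, 26 and 30 reads in a library.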

Other observations

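Mthfd1 and Sardh both varied less between cold animals than between ctrl animals: the coefficient of variation went from 16.7% to 5.27% for Mthfd1 and from 12.4% to 8.55% for Sardh. Shmt1 and Mthfd1l (40.1% to 24.3%) also varied less in cold animals. Shmt2 varied more in cold animals, 11.2% against 3.45%. So did Psph (20.1% against 9.78%), Phgdh (49.9% against 36.7%), Mthfd2 (56.7% against 22.5%) and Psat1 (39.3% against 37.5%). These differences in spread were not tested. In ctrl animals Shmt2 and Mthfd2 had a Pearson r of -0.895 (exact permutation p = 0.0278, adjusted p = 0.194, n = 6), which was -0.439 without the 2 animals farthest from the median of Shmt2.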
